A study of Mus musculus with 12 samples.

Results

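The DNA methyltransferase genes Dnmt1, Dnmt3a, Dnmt3b and Dnmt3l, together with Uhrf1, were followed across cultured epiblast, ES cells and ES-like cells derived from epiblast. Members were all probes whose single gene symbol in the platform annotation is one of these 5 names. They came to 5 genes of the 13840 with such a symbol on the array, and to 6 probes of 33012, with 2 probes for Dnmt3b and 1 for each other gene. All 6 were detected well enough in at least 1 group to be tested.

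Expression was measured with 12 Applied Biosystems AB1700 arrays, 3 for each of 4 groups of mouse cells. rEpiES cells at passage 24 and at passage 4, called rEpiES p24 and rEpiES p4 here, are reprogrammed epiblast ES-like cells. Per the labels, single cells of dissected epiblast were grown on mitomycin-treated mouse embryonic fibroblasts in medium with serum and LIF. Colonies in which an Oct4 reporter had come on were then isolated and passaged. cEpi is cultured epiblast from such post-implantation embryos, and its culture is not described in the labels. ES cells are a control whose line and culture are not described there either. The embryos in all labels were of E5.5-E7.5, with 129/sv or ROSA 129/Sv mothers and fathers that carried the Oct4-△PE-EGFP transgene, a GFP reporter of Oct4 that lacks the proximal enhancer. Isolation of GFP-positive colonies selected the rEpiES cells. Whether the 3 arrays of a group stand for separate lines, clones or cultures is not stated, so the spread behind each p-value is that of arrays and may be technical.

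DNA methylation in mammals is written by de novo enzymes, Dnmt3a and Dnmt3b, and copied after replication by the maintenance enzyme Dnmt1. Dnmt3l has no catalytic activity and stimulates the de novo enzymes, and Uhrf1 binds hemimethylated CpG sites and brings Dnmt1 to them. Post-implantation epiblast is known for gaining methylation across the genome, and ES cells grown in serum with LIF are known for strong expression of the de novo enzymes.

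Promoters are shown first for Dnmt3l, the member with the widest range between groups, beside Dnmt3b, and for the maintenance pair. RefSeq (build GRCm38.p6) lists 12 windows for the 5 genes, each 300 bases long, from 250 before to 50 after a start site. The array data do not say which start was used, and no methylation was measured. The Dnmt3l windows at chr10:78042037-78042336 and chr10:78049592-78049891 and the Dnmt3b window at chr2:153649199-153649498, all on the + strand, are printed to compare their CpG sites, which stand in capitals.
Dnmt3l start 1: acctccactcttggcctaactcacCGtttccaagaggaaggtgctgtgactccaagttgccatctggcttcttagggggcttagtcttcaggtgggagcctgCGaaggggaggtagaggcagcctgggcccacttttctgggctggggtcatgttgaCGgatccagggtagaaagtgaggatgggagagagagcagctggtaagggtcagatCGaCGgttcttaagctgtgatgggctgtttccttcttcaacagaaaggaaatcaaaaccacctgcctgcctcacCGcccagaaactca
Dnmt3l start 2: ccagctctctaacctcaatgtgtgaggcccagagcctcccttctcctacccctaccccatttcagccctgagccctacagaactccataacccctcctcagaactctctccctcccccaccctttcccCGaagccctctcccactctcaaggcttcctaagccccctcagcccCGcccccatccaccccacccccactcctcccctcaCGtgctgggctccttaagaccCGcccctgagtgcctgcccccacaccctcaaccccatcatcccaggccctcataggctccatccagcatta
Dnmt3b: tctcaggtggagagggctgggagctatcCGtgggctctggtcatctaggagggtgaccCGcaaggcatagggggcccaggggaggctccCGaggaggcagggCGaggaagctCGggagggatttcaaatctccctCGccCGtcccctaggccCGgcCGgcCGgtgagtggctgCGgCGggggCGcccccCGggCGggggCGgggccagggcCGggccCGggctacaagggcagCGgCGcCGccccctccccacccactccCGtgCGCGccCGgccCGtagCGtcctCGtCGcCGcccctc

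The Dnmt3l windows held 6 and 4 CpG sites, and a further Dnmt3l window held 3. The median over all 32851 windows was 7, and 43.6%, 31.4% and 23.3% of windows held fewer than these Dnmt3l windows. The Dnmt3b window held 30 CpG sites, more than 88.3% of windows. The Dnmt3a windows held 46, 47 and 18.

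For the maintenance pair, the sequences searched were TTTCGCGC, TTTGGCGC, TTTCCCGC and TTTGCCGC, forms of the site of E2F factors, which control genes of S phase. Their reverse complements GCGCGAAA, GCGCCAAA, GCGGGAAA and GCGGCAAA were searched as well, and no form is the reverse complement of another. Of all windows 744, or 2.3%, held at least 1. Among the 12 windows of the 5 genes, 1 of Dnmt1 and 1 of Uhrf1 did. They lie at chr9:20952574-20952873 on the - strand and at chr17:56304063-56304362 on the + strand, with the matches in capitals.
Dnmt1 start 3: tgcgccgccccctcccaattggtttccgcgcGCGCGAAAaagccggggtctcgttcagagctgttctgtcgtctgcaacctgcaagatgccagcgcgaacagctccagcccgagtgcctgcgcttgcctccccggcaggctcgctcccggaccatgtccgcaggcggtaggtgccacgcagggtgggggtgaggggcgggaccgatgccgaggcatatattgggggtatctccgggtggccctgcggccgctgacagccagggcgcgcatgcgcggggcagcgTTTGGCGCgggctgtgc
Uhrf1 start 2: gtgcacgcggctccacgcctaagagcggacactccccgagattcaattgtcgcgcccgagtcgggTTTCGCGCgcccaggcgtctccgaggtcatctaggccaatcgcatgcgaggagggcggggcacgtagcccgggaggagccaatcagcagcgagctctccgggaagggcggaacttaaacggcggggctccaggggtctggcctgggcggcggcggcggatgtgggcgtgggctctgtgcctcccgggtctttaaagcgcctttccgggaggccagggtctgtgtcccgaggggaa

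The Dnmt1 window held GCGCGAAA at -219 and TTTGGCGC at 33 from the start, and the Uhrf1 window held TTTCGCGC at -185. Both windows held 33 CpG sites, more than 91.4% of windows. Each sequence searched holds a CpG itself, and the share with a match among windows equally rich in CpG was not counted. A match is a description of letters and not a bound site. No match in the other 10 windows says only that these letters are not in them.

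Values below are the authors' quantile-normalised log2 values, on which a difference of 1 is 2-fold. Changes are log2 differences ± standard error from 1 limma fit of all 12 arrays, called where the Benjamini-Hochberg adjusted p over 15235 tested probes was under 0.05. A probe counted as detected on an array at a signal-to-noise score of 3 or more. In bulk samples, fewer cells of a type and less RNA per cell cannot be told apart.

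The arrays detected 14422 to 15637 probes in rEpiES p24, 14329 to 15034 in rEpiES p4, 15726 to 16537 in cEpi and 12061 to 13827 in ES. All 5 pluripotent markers, Pou5f1, Sox2, Zfp42, Dppa3 and Klf4, were detected on every array. Their summed level was 1087000 to 1128000 in rEpiES p24, 1021000 to 1091000 in rEpiES p4, 277500 to 289200 in cEpi and 822700 to 1044000 in ES. Markers of other cells moved between the same groups as the methyltransferases. The 14 feeder fibroblast markers with a probe, of 15 listed, summed to 444800 to 470900 in rEpiES p24, 856500 to 881700 in rEpiES p4, 2659000 to 2774000 in cEpi and 651100 to 954300 in ES. The 9 endoderm markers summed to 6232 to 7190 in rEpiES p24, 10980 to 13440 in rEpiES p4, 134400 to 145200 in cEpi and 29940 to 33120 in ES. The 4 primitive streak markers with a probe, of 5 listed, summed to 5499 to 6628 in rEpiES p24, 33020 to 34980 in rEpiES p4, 277000 to 290900 in cEpi and 72080 to 76180 in ES. The 4 trophoblast markers with a probe, of 5 listed, summed to 17720 to 18680 in rEpiES p24, 34590 to 35290 in rEpiES p4, 9607 to 9704 in cEpi and 10760 to 13590 in ES. Outside cEpi most of that sum was Tfap2c, which averaged 14.04 (log2) in rEpiES p24, 14.93 in rEpiES p4, 11.64 in cEpi and 12.98 in ES. The other trophoblast markers, Cdx2, Hand1 and Plac1, were undetected in rEpiES p24 and had their highest mean in cEpi. Feeder, endoderm and streak sums were thus highest in cEpi and lowest in rEpiES p24, though single markers could go another way. The streak marker Mixl1 averaged 15.44 in ES and 14.76 in cEpi. Between passages, 2 feeder markers were called higher in rEpiES p24 than in rEpiES p4 and 8 lower. Pdgfra was undetected in rEpiES p24, rEpiES p4 and ES, and the endoderm markers Foxa1 and Gata4 were undetected in rEpiES p24 and ES. The part of these cells in the results below was not tested.

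**Figure D1:**
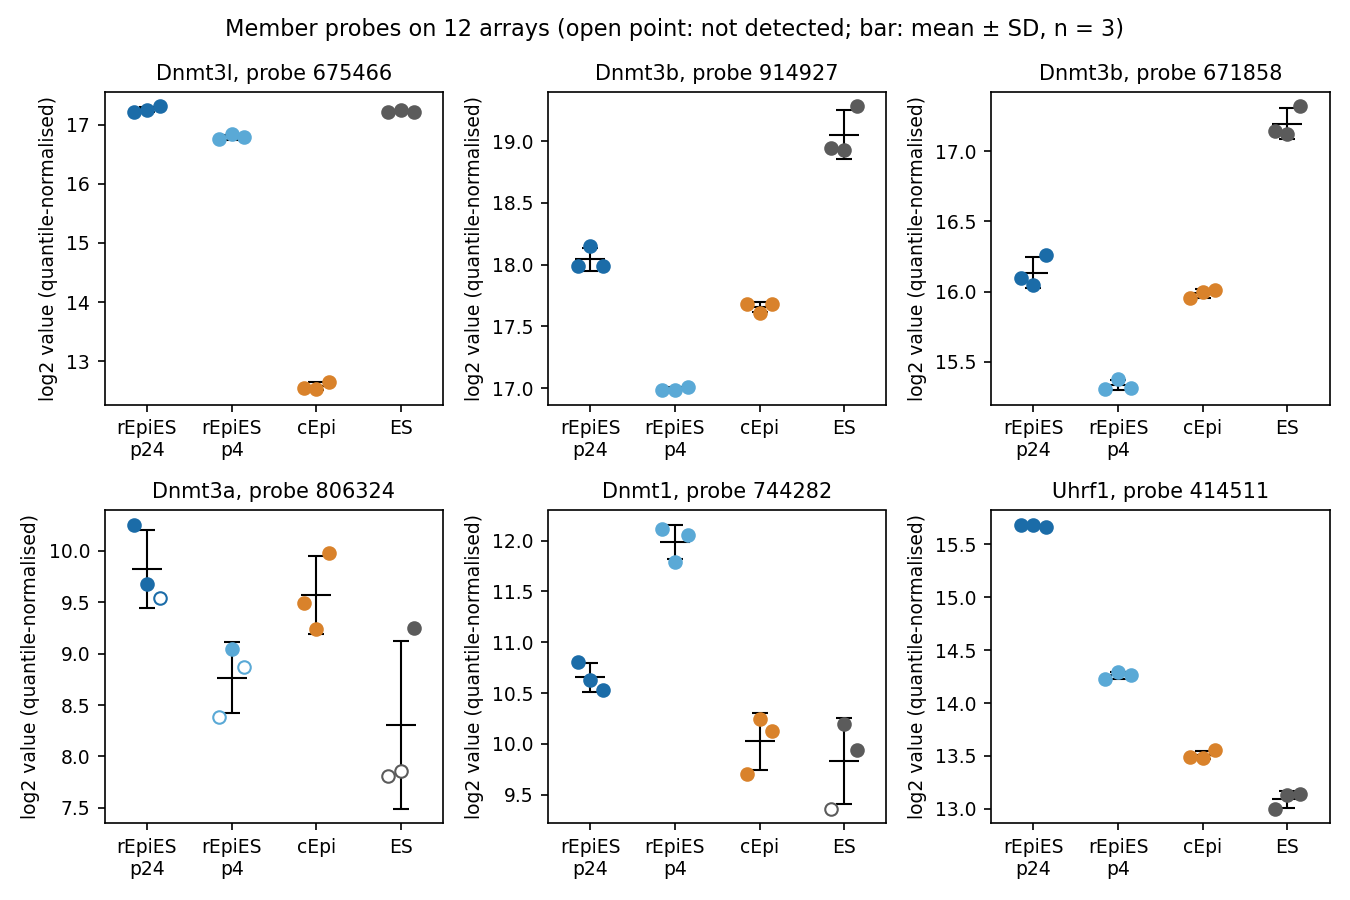
Quantile-normalised log2 level of each of the 6 probes on each of the 12 arrays, one panel per probe, with groups on the x axis, points for arrays (open where not detected) and bars for the mean and SD over 3 arrays. Dnmt3l is near 12.58 in cEpi and at 16.79 or above elsewhere, and the 4 groups are fully separate for Uhrf1.

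Dnmt3l, the cofactor, was the member with the widest range between groups. It read 17.22, 17.24 and 17.31 on the rEpiES p24 arrays and 16.75, 16.83 and 16.79 on the rEpiES p4 arrays. It read 12.55, 12.53 and 12.65 on the cEpi arrays and 17.21, 17.25 and 17.21 on the ES arrays. Only the cEpi arrays were low, at less than any other array, and the rEpiES p24 and ES arrays overlapped. The low group was also the one with the highest sums of feeder, endoderm and streak markers.

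The means were 17.26 ± 0.05 in rEpiES p24, 16.79 ± 0.04 in rEpiES p4, 12.58 ± 0.07 in cEpi and 17.22 ± 0.02 in ES (SD, n = 3 each). Dnmt3l was lower in cEpi than in ES by 25.05-fold, a change of -4.65 ± 0.06 (limma adjusted p = 1.5e-10), the 30th lowest of the 15235 tested probes. It was higher in rEpiES p4 than in cEpi by 18.5-fold, a change of 4.21 ± 0.06 (limma adjusted p = 1.28e-10), the 31st highest. It was higher in rEpiES p24 than in cEpi by 25.6-fold, a change of 4.68 ± 0.06 (limma adjusted p = 1.89e-11), the 69th highest. These comparisons share arrays.

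Between the ES-like and ES cells the differences were small. The change in rEpiES p24 minus ES was 0.03, with a 95% interval of -0.10 to 0.16 (limma adjusted p = 0.665), and with each array scaled to the same median it was 0.42 and called (adjusted p = 0.0196), where the median of all tested probes moved by 0.33. In rEpiES p4 minus ES it was -0.44 ± 0.06 (limma adjusted p = 0.000169), and with median scaling it was -0.18 (adjusted p = 0.302). Between the passages, rEpiES p24 minus rEpiES p4, it was 0.47 ± 0.06 (limma adjusted p = 0.000236), with no overlap between arrays.

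Dnmt3b, a de novo enzyme and a marker of post-implantation epiblast in the list used here, was highest in ES and lowest in rEpiES p4, and both probes gave this order of those groups. The other markers of that list were split. Fgf5 and Otx2 had their highest mean in cEpi, 17.40 and 17.64, against 15.85 and 17.10 in ES. Pou3f1 had its highest mean in ES, 14.23, against 12.51 in cEpi. The list, Dnmt3b included, summed to 711500 to 873100 in ES and 584000 to 600300 in cEpi. Dnmt3b had the highest mean of the list in ES, 19.05, and makes up most of that sum. The order of the sums thus restates Dnmt3b and is not that of Fgf5 and Otx2. Probe 914927 read 17.99, 18.15 and 17.99 in rEpiES p24, 16.98, 16.99 and 17.01 in rEpiES p4, 17.68, 17.61 and 17.68 in cEpi, and 18.95, 18.93 and 19.28 in ES. Probe 671858 read 16.09, 16.05 and 16.26 in rEpiES p24, 15.31, 15.37 and 15.31 in rEpiES p4, 15.95, 16.00 and 16.01 in cEpi, and 17.14, 17.12 and 17.32 in ES. No group overlapped another at either probe. The nearest neighbours in the order were rEpiES p24 and cEpi.

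Dnmt3b was lower in rEpiES p4 than in ES, with a change of -2.06 ± 0.10 at probe 914927, which is 4.17-fold (limma adjusted p = 2.32e-07), and of -1.86 ± 0.08 at probe 671858 (adjusted p = 1e-07). These ranked 129th and 177th lowest of all tested probes. It was also lower than in ES in cEpi, with changes of -1.40 ± 0.10 and -1.21 ± 0.08 (limma adjusted p = 8.82e-07 and 4.9e-07), and in rEpiES p24, with changes of -1.01 ± 0.10 and -1.06 ± 0.08 (adjusted p = 1.18e-05 and 1.76e-06). With median scaling these were smaller but still called, -0.94 and -0.73 in cEpi minus ES and -0.62 and -0.70 in rEpiES p24 minus ES. With no normalisation between arrays they were -0.81 and -0.60 in cEpi minus ES and -0.68 and -0.76 in rEpiES p24 minus ES. Minus the median of all tested probes they changed little. In cEpi minus ES they were -1.62 and -1.42 with median scaling and -1.54 and -1.35 with quantiles. In rEpiES p24 minus ES they were -0.99 and -1.07, and -1.05 and -1.10.

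Passage 4 cells lay below cEpi as well. In rEpiES p4 minus cEpi the changes were -0.66 ± 0.10 at probe 914927 and -0.66 ± 0.08 at probe 671858 (limma adjusted p = 0.00023 and 5.16e-05), and without normalisation between arrays they were -1.05 and -1.08. Dnmt3b rose in rEpiES p24 relative to rEpiES p4 by 1.05 ± 0.10 and 0.80 ± 0.08 (limma adjusted p = 2.95e-05 and 3.87e-05). For rEpiES p24 minus cEpi the probes differed in call. Probe 914927 gave 0.39 ± 0.10 (limma adjusted p = 0.00523), and 0.32 (adjusted p = 0.132) with each array scaled to the same median. Probe 671858 gave 0.15, with a 95% interval of -0.03 to 0.32 (limma adjusted p = 0.12), and -0.15 without normalisation between arrays.

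The probes did not keep a fixed ratio. The difference of probe 671858 minus probe 914927 within an array averaged -1.91 in rEpiES p24, -1.66 in rEpiES p4, -1.67 in cEpi and -1.86 in ES. The arrays of rEpiES p24 and ES overlapped in it, as did those of rEpiES p4 and cEpi, and all other pairs of groups were separate. The separation could be slight and was not tested: rEpiES p24 ran from -2.10 to -1.73, and the lowest cEpi array was at -1.72. The split follows file layout as well: the files of rEpiES p24 and ES share one layout, and those of rEpiES p4 and cEpi share another. Layout and group cannot be told apart in a comparison across them, and the transcript that each probe reads was not examined.

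Dnmt3a, the other de novo enzyme, was near the detection limit at its only probe, and the transcripts which that probe reads were not examined. It was detected on 2 of 3 arrays of rEpiES p24, 1 of 3 of rEpiES p4, 3 of 3 of cEpi and 1 of 3 of ES. The values were 10.26, 9.67 and 9.54 in rEpiES p24, 8.38, 9.05 and 8.87 in rEpiES p4, 9.49, 9.24 and 9.98 in cEpi, and 7.81, 7.86 and 9.25 in ES. The third ES array read higher than the other two, above all rEpiES p4 arrays and the lowest cEpi array, and rEpiES p24 lay above ES on all arrays.

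Dnmt3a passed the detection filter only through cEpi, where 1 array had a score of exactly 3, and its call in cEpi minus ES is to be read with that. Dnmt3a was higher than in ES in rEpiES p24, by 1.52 ± 0.39 (limma adjusted p = 0.00731), and in cEpi, by 1.27 ± 0.39 (adjusted p = 0.0162). Dropping single arrays ended the cEpi call: the change was 1.02 without ES replicate 1 (limma adjusted p = 0.0579), 1.05 without ES replicate 2 (adjusted p = 0.0574) and 1.06 without cEpi replicate 3 (adjusted p = 0.0619). The other 4 comparisons were not called. They were rEpiES p24 minus rEpiES p4, with a change of 1.05 and a 95% interval of 0.18 to 1.93 (limma adjusted p = 0.0604), and rEpiES p4 minus cEpi, with -0.80 and -1.68 to 0.07 (adjusted p = 0.107). The change was 0.46 in rEpiES p4 minus ES, with -0.41 to 1.34 (adjusted p = 0.344), and 0.25 in rEpiES p24 minus cEpi, with -0.62 to 1.13 (adjusted p = 0.594). Without ES replicate 3 the calls were made for rEpiES p24 minus rEpiES p4 (1.05, adjusted p = 0.0102), rEpiES p4 minus cEpi (-0.80, adjusted p = 0.0236) and rEpiES p4 minus ES (0.93, adjusted p = 0.0211).

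Dnmt1, the maintenance enzyme, was highest in rEpiES p4. It read 10.81, 10.63 and 10.53 in rEpiES p24, 12.11, 11.79 and 12.05 in rEpiES p4, 9.70, 10.24 and 10.13 in cEpi, and 9.36, 10.19 and 9.94 in ES. All rEpiES p4 arrays lay above every other array, the rEpiES p24 arrays above cEpi and ES, and the cEpi and ES arrays overlapped. The first ES array was not detected. At this 1 probe the signal-to-noise scores were 17.3 to 26.7 in rEpiES p4. They were 4.72 to 8.56 in rEpiES p24, 5 to 8.6 in cEpi and 2.28 to 6.57 in ES, nearer the detection limit of 3. Fold changes against those groups rest on a dim signal.

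The means were 10.65 ± 0.14 in rEpiES p24, 11.99 ± 0.17 in rEpiES p4, 10.02 ± 0.28 in cEpi and 9.83 ± 0.43 in ES (SD, n = 3 each). Dnmt1 rose in rEpiES p4 relative to ES by 2.16 ± 0.21, which is 4.46-fold (limma adjusted p = 2.14e-05), and relative to cEpi by 1.96 ± 0.21, which is 3.9-fold (adjusted p = 3.21e-05). It was lower in rEpiES p24 than in rEpiES p4, with a change of -1.33 ± 0.21 (limma adjusted p = 0.00101). It was higher in rEpiES p24 than in ES by 0.82 ± 0.21 (limma adjusted p = 0.00768), and than in cEpi by 0.63 ± 0.21 (adjusted p = 0.0249). The last call was lost without normalisation between arrays (0.35, adjusted p = 0.187), with median scaling (0.54, adjusted p = 0.0505) and with no detection filter (0.63, adjusted p = 0.0638). It was also lost without rEpiES p24 replicate 1 (0.56, adjusted p = 0.0794), rEpiES p24 replicate 2 (0.64, adjusted p = 0.0529) or cEpi replicate 1 (0.47, adjusted p = 0.0967). The change in cEpi minus ES was 0.19, with a 95% interval of -0.29 to 0.67 (limma adjusted p = 0.447).

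Uhrf1, the partner that brings Dnmt1 to hemimethylated DNA, had another order. It read 15.68, 15.68 and 15.66 in rEpiES p24, 14.22, 14.29 and 14.27 in rEpiES p4, 13.49, 13.48 and 13.55 in cEpi, and 13.00, 13.13 and 13.14 in ES. The order was rEpiES p24, rEpiES p4, cEpi and ES from high to low, and each neighbour in it was separate from the next. Every array detected it, with signal-to-noise scores of 26.26 to 38.7 in rEpiES p24, 21.4 to 28.6 in rEpiES p4 and 18.1 to 25.3 in cEpi. In ES the scores were only 5 to 6.08, nearer the detection limit of 3, and fold changes against ES rest on these.

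All 6 comparisons were called for Uhrf1. It rose in rEpiES p24 relative to ES by 2.59 ± 0.06, which is 6.01-fold (limma adjusted p = 1.51e-09), and relative to cEpi by 2.17 ± 0.06 (adjusted p = 1.26e-09). Relative to rEpiES p4 it rose by 1.42 ± 0.06, which is 2.67-fold (limma adjusted p = 1.42e-07). In rEpiES p4 it was higher than in ES by 1.17 ± 0.06 (limma adjusted p = 3.66e-07) and than in cEpi by 0.75 ± 0.06 (adjusted p = 3.32e-06). Without normalisation between arrays the change of rEpiES p4 minus cEpi was 0.24 (adjusted p = 0.301), and with median scaling 0.44 (adjusted p = 0.0427). In the unnormalised values the median of all tested probes moved by -0.44 relative to the quantile-normalised ones. The change in cEpi minus ES was 0.42 ± 0.06 (limma adjusted p = 0.000145), and it was 1.16 with median scaling and 1.29 without normalisation between arrays. The median of all tested probes was itself 0.69 and 0.81 in those settings. After subtracting that median, Uhrf1 changed by 0.47 in both, and by 0.27 with quantiles. In rEpiES p24 relative to rEpiES p4, then, Uhrf1 was higher and Dnmt1 lower, and the summed trophoblast, streak, endoderm and feeder markers were lower as well.

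**Figure D2:**
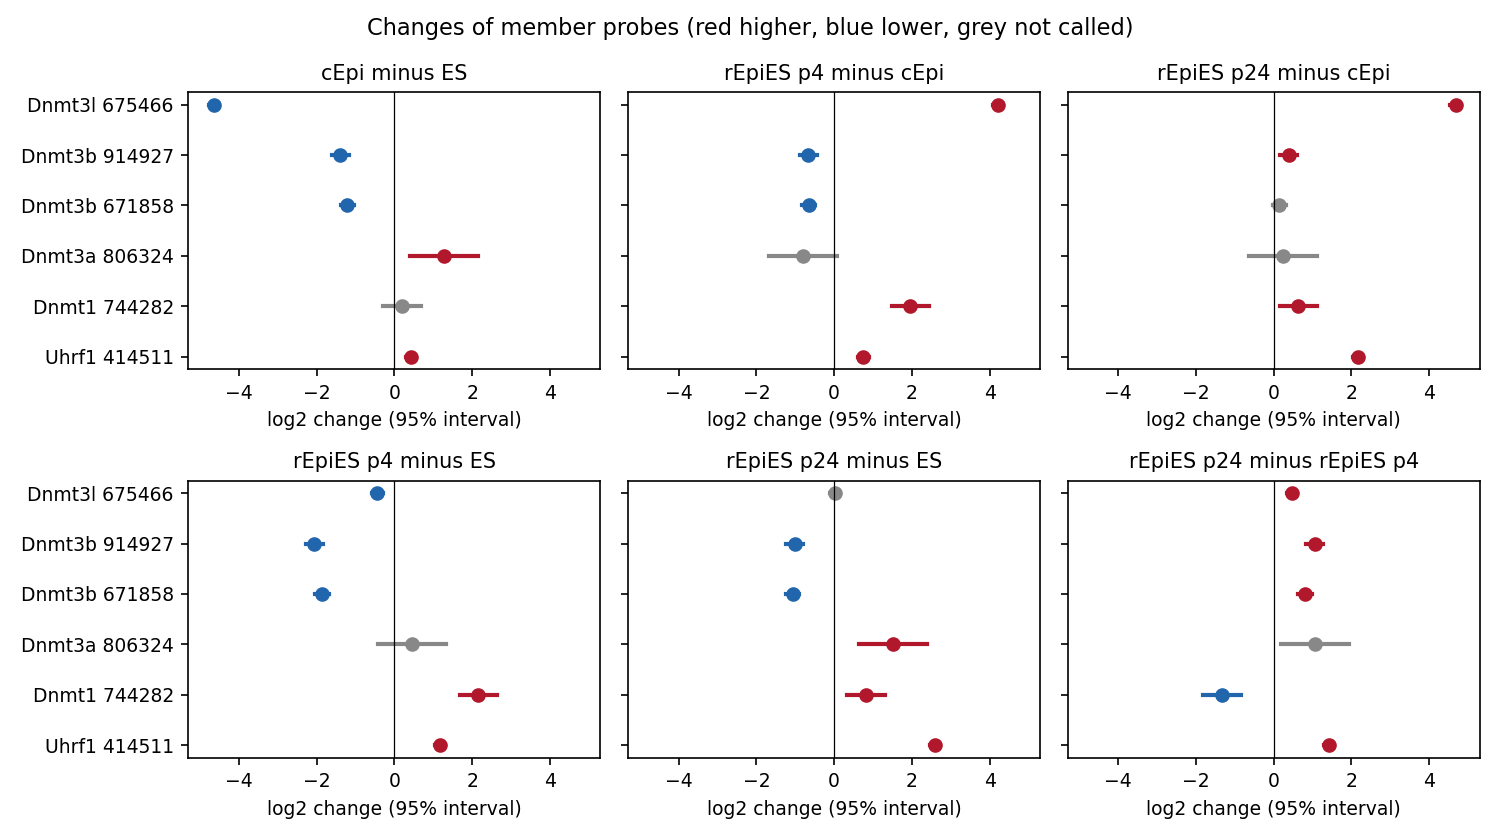
Log2 change of each of the 6 probes in each of the 6 comparisons, one panel per comparison, with bars for the 95% interval of the limma fit and points in red for higher, blue for lower and grey for not called at adjusted p under 0.05. Dnmt3l is at -4.65 in cEpi minus ES and at 4.68 in rEpiES p24 minus cEpi, and Uhrf1 lies above 0 in every panel.

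Counts of called members stand against a background in which a large share of the array was called. For rEpiES p24 minus rEpiES p4, 4 of the 6 probes were higher and 1 lower, where 36.1% of all tested probes were called, 17.2% higher and 18.9% lower. Against cEpi, 4 probes were higher and 0 lower in rEpiES p24, where 66.2% were called, 33.3% higher and 32.9% lower. Against cEpi, 3 were higher and 2 lower in rEpiES p4, where 56.3% were called, 28.2% higher and 28.1% lower.

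Set against ES, 2 probes were higher and 3 lower in cEpi, where 66.2% of all tested probes were called, 36.6% higher and 29.6% lower. In rEpiES p24, 3 were higher and 2 lower than in ES, where 59.7% were called, 30.6% higher and 29% lower. In rEpiES p4, 2 were higher and 3 lower than in ES, where 55.3% were called, 29.3% higher and 26% lower. With 6 probes, counts of 4 or 5 against these shares are no result about the members as a set. Arrays of the groups did not overlap for all 6 members in rEpiES p24 minus rEpiES p4 (58.2% of all tested probes) and in rEpiES p4 minus cEpi (74.2%), for 5 in rEpiES p24 minus cEpi (79.3%), rEpiES p24 minus ES (61%) and rEpiES p4 minus ES (58.1%), and for 4 in cEpi minus ES (68.8%).

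Several of these changes depended on the normalisation. With each array scaled to the same median in place of quantiles, the median of all tested probes moved by 0.54 in cEpi minus ES, 0.33 in rEpiES p24 minus ES, 0.30 in rEpiES p4 minus ES, -0.23 in rEpiES p4 minus cEpi, -0.19 in rEpiES p24 minus cEpi and 0.04 in rEpiES p24 minus rEpiES p4. The share of higher probes among calls was 82.3% against 55.3% in cEpi minus ES, 75.9% against 51.4% in rEpiES p24 minus ES, 80.5% against 52.9% in rEpiES p4 minus ES, 31.5% against 50.1% in rEpiES p4 minus cEpi and 39% against 50.3% in rEpiES p24 minus cEpi. After subtracting that median, Dnmt3l changed by -4.71 in cEpi minus ES with median scaling and by -4.79 with quantiles, and Uhrf1 in rEpiES p24 minus ES by 2.74 and 2.55. Relative to that median the sign turned for changes that were not called: Dnmt1 in cEpi minus ES, -0.29 with median scaling and 0.05 with quantiles, and Dnmt3a in rEpiES p4 minus ES, -0.17 and 0.41. Dnmt3l in rEpiES p24 minus ES, near 0 in both, was 0.05 with median scaling.

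**Figure D3:**
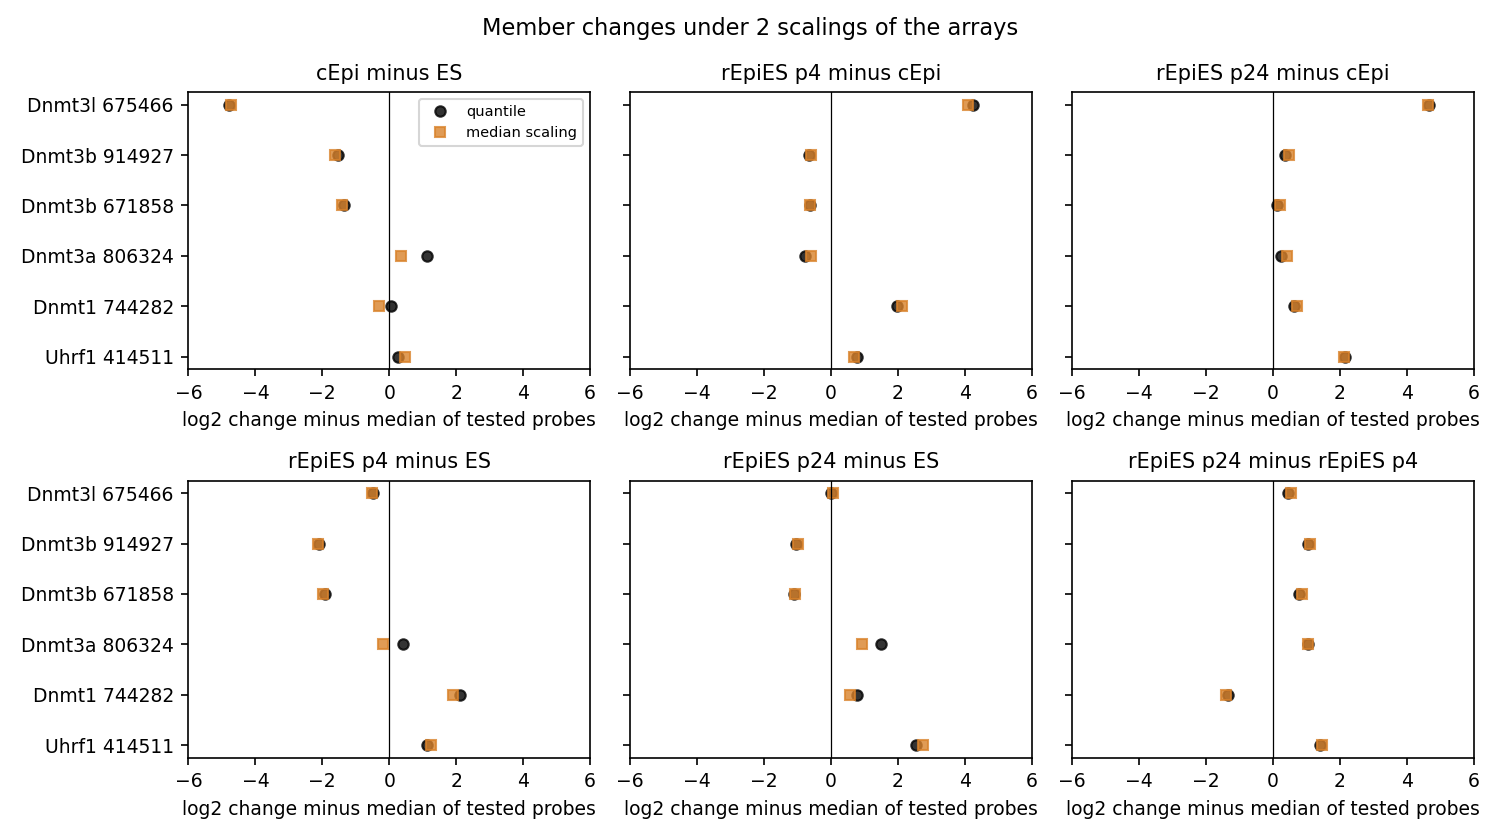
Change of each of the 6 probes minus the median change of all 15235 tested probes, in log2 units, for each comparison, with one symbol per scaling of the arrays. Large changes such as Dnmt3l in cEpi minus ES, -4.79 with quantiles and -4.71 with median scaling, lie close together.

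Partners of the maintenance step were compared next, from a list of 12 genes of which 9 had a named probe and were tested. Counts in this list and those below stand against the shares of all tested probes given above. These were 36.6% higher and 29.6% lower in cEpi minus ES, and 33.3% higher and 32.9% lower in rEpiES p24 minus cEpi. In cEpi minus ES 1 was higher and 6 were lower, with a median change of -0.60 where all tested probes had 0.14. The lower ones were led by Hells (-1.38), a chromatin remodeller needed for DNA methylation, and Lig1 (-1.27), the ligase of DNA replication, and the higher one was Hdac1 (0.49), a histone deacetylase. With median scaling 3 were higher and 3 lower, with a median of 0.13 where all tested probes had 0.69.

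Against cEpi, 7 maintenance partners were higher and 1 lower in rEpiES p24, with a median of 0.64 against 0.01 for all tested probes. Hells (1.59) and Lig1 (1.15) led, and Hdac2 was lower (-0.45). Between passages, 4 were higher in rEpiES p24 than in rEpiES p4 and 0 lower, led by Ehmt2 (1.04), a histone H3 lysine 9 methyltransferase, and Pcna (0.41), the replication clamp. With median scaling the counts were 5 higher and 1 lower, and 2 higher and 0 lower.

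S-phase genes were examined because Dnmt1 and Uhrf1 are known to rise with replication. Of 22 listed, 15 were tested. Between passages, 10 were higher in rEpiES p24 than in rEpiES p4 and 0 lower, with a median of 0.37 against 0.01, and Mcm2 (1.06) and Ccne1 (0.65) led. Against cEpi, 12 were higher in rEpiES p24 and 0 lower, with a median of 0.75, led by Mcm2 (2.36), a subunit of the replicative helicase, and Ccne1 (2.09), a cyclin of the G1 to S step. Against cEpi, 11 were higher in rEpiES p4 and 0 lower, with a median of 0.51 against -0.02. With median scaling these counts were 8, 9 and 5 higher, each with 0 lower. Pola1 passed the detection filter only through rEpiES p4, and Tyms only through ES. Without both, 10 of 13 were higher in rEpiES p4 than in cEpi and 0 lower.

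Against ES the S-phase genes were split. For rEpiES p24 minus ES 6 were higher and 4 lower, led by Rrm1 (2.77), a subunit of ribonucleotide reductase, and Mcm2 (2.52). For rEpiES p4 minus ES 5 were higher and 7 lower. For cEpi minus ES 2 were higher and 11 lower, with a median of -0.64. Ccne1 (-2.12) was the lowest. Tyms, the thymidylate synthase, was undetected in cEpi, with a bound of 3.59-fold lower there that is not a strict limit. Tyms passed the detection filter only through ES and Pola1, a DNA polymerase subunit, only through rEpiES p4. Without both, 6 were higher and 3 lower for rEpiES p24 minus ES, 4 higher and 6 lower for rEpiES p4 minus ES, and 2 higher and 10 lower for cEpi minus ES. With median scaling the counts were 7 higher and 2 lower for rEpiES p24 minus ES, 5 higher and 4 lower for rEpiES p4 minus ES, and 2 higher and 3 lower for cEpi minus ES.

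Genes of active demethylation and of its cofactors were 9 tested of 14 listed. Tet1, Tet2 and Tet3 were not analysed here. Set against ES, 3 were higher and 5 lower in cEpi. Dppa3, which protects DNA from demethylation in the mouse zygote and counters Uhrf1 in oocytes, was the lowest (-5.27), followed by Mbd4 (-1.80), a DNA glycosylase. Idh1 (2.95) and Idh2 (2.03), isocitrate dehydrogenases that make the cofactor of Tet enzymes, were the highest.

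Set against cEpi, 7 demethylation genes were higher and 2 lower in rEpiES p24, with a median of 0.70. Dppa3 (4.67) and Gadd45b (1.51), a stress-response gene, were highest, and Idh1 (-0.71) and Tdg (-0.43), the thymine DNA glycosylase, were lower. With median scaling the counts were 4 higher and 4 lower in cEpi minus ES and 4 higher and 2 lower in rEpiES p24 minus cEpi.

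Methyl donor and one-carbon genes, which supply the methyl group, were 9 tested of 14 listed. All 9 were higher in rEpiES p24 than in cEpi, where 33.3% of all tested probes were higher. The median was 0.59, and the largest rises were those of Shmt1 (2.47), which makes one-carbon units from serine, and Gldc (1.70), which takes them from glycine. Set against ES, 3 were higher and 6 lower in cEpi, with Shmt2 (1.30) and Mthfd1l (0.91) highest and Mat2b (-0.94) and Ahcy (-0.81) lowest. Mat2b is a subunit of the enzyme that makes S-adenosylmethionine, and Ahcy removes its used form. Set against ES, 5 were higher and 2 lower in rEpiES p24, led by Shmt1 (1.94) and Shmt2 (1.61). With median scaling the counts were 5 higher and 0 lower, 3 higher and 2 lower, and 5 higher and 0 lower in these comparisons.

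Histone partners, a list of 16 chromatin genes of which 11 were tested, hold Polycomb genes and heterochromatin proteins such as Cbx3 and Cbx5. They also hold Nsd1, a histone H3 lysine 36 methyltransferase, and the histone demethylases Kdm1a and Kdm1b. Set against ES, 0 were higher and 10 lower in cEpi, with a median of -0.73, led by Jarid2 (-1.97) and Eed (-1.62), both of the Polycomb repressive complex. Against cEpi, 9 were higher and 1 lower in rEpiES p24, with a median of 0.74, led by Nsd1 (1.85) and Suz12 (1.80), of the Polycomb complex, and Ezh2, its catalytic subunit, was lower (-0.27). With median scaling the counts were 1 higher and 5 lower, and 7 higher and 0 lower.

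CpG readers were 4 tested of 10 listed. Set against ES, 1 was higher and 2 lower in cEpi, namely Mbd3 (0.24), a subunit of a histone deacetylase complex, and Kdm2a (-1.96) and Kdm2b (-0.58), histone demethylases that bind CpG islands. In rEpiES p24, 2 were higher than in ES, Mbd3 (0.44) and Kdm2b (0.43), and 1 was lower, Kdm2a (-3.17), which was detected on 2 of 3 rEpiES p24 arrays. With median scaling the counts were 1 higher and 1 lower in cEpi minus ES and 2 higher and 1 lower in rEpiES p24 minus ES.

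A list of germ line genes, known in the mouse to be silenced by promoter methylation in somatic cells, was set beside the members. Of 12 listed, 7 were tested, and several could pass the detection filter only through the groups where they are high, so their count is a description. In rEpiES p24 7 were higher than in cEpi, with a median of 3.71, also with undetected genes at their bound. Mael and Dazl were detected on no cEpi array, and their bounds were 31.8-fold and 23.4-fold higher in rEpiES p24. Such bounds are not strict lower limits. Set against ES, 0 were higher and 6 lower in cEpi, with a median of -2.65, or -2.37 with undetected genes at their bound. Hormad1, at -0.98, was not called there. Methylation of these promoters was not measured.

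**Figure D4:**
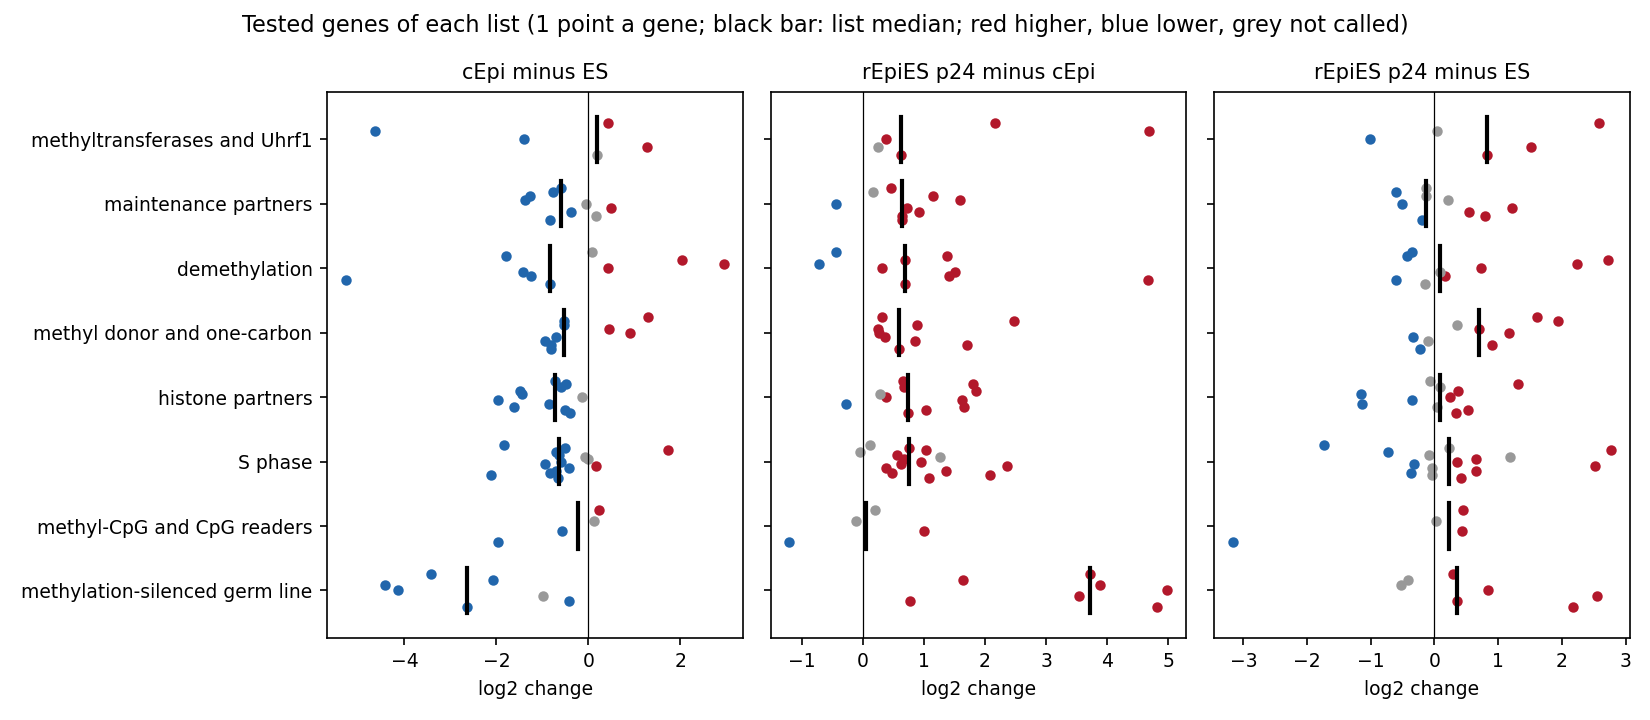
Log2 change of every tested gene in each list in 3 comparisons, with 1 point per gene (red higher, blue lower, grey not called) and a black bar at the median of the list. In cEpi minus ES the median is -0.73 for the histone partners and -0.64 for the S-phase genes, and in rEpiES p24 minus cEpi it is 0.74 and 0.75.

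The genes whose profile over the 12 arrays was most like each member were ranked by Pearson r among up to 9133 tested probes with 1 symbol. The arrays fall into 4 groups, share 1 normalisation and come in 2 file layouts, so the values are a description. For Dnmt3l they were Dppa2 (0.997), Etaa1 (0.997), Slc25a12, Stmn2 and Hmces (0.996). For Dnmt3b (probe 914927) they were Esrp1 (0.983), Cxcl1 (0.983), Psmd12, Trim59 and Pcna (0.978). For Dnmt3a, whose only probe was dim, they were Hsp90b1 (0.932), Zfp516, Rab3d, Slc37a4 and H2-M3 (0.896).

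For Dnmt1 the nearest profiles were those of Dync1h1 (0.955), Heatr1, Ppp1r15b, Aqp3 and Llgl2 (0.950). For Uhrf1 they were those of Mbtd1 (0.986), Tiparp, Crcp, Gnpat and Net1 (0.985). Dppa2, a pluripotent-cell chromatin factor, averaged 16.31 in rEpiES p24, 15.84 in rEpiES p4, 11.49 in cEpi and 16.21 in ES, so its low group was the same as that of Dnmt3l. Pcna averaged 18.63 in rEpiES p24, 18.22 in rEpiES p4, 18.47 in cEpi and 19.24 in ES, which is the group order of Dnmt3b. Both genes were picked by their likeness to the member on these arrays, so the shared patterns follow from that choice.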

How the data were processed

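Arrays were 1-colour. The deposited linear signal intensity of each probe has no stated normalisation between arrays. No source used here gives the scanner software or any background correction. Per the file headers, a further column holds the authors' quantile-normalised values, which lie on a log2 scale and were analysed here. Detection was read from the deposited signal-to-noise score, at 3 or more. Deposited quality codes have no stated meaning and were used in an alternative only. In the files of cEpi and rEpiES p4 the headers of score and code are exchanged, so columns were read by contents. rEpiES p4 minus cEpi and rEpiES p24 minus ES lie within a file layout, and the other 4 comparisons across layouts.

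Probes detected on each of the 3 arrays of some group were tested (15235 probes). Differences were fitted with limma 3.58.1 in R 4.3.3 (lmFit and eBayes, two-sided, Benjamini-Hochberg over all tested probes, 8 residual and 1.53 prior degrees of freedom), and the procedure was tested on simulated data. Tables were handled with Python 3.11.15 and pandas 2.3.3. Symbols came from the platform annotation. 14411 probes had 1, 247 several and 18354 none here. For lists, a gene with several probes stands by the one with the highest mean, and the 2 largest rises and falls of a comparison may be named. Bounds for undetected genes set the brighter group's mean against the higher of the dim probe's signal and the lowest detected signal of any probe. Probes could be undetected at higher values, such as Stk31 at up to 10.59 in ES, so these bounds are not strict limits. The members and lists were chosen with earlier results of these data known. Replicate numbers did not pair the samples: deviations of same-numbered arrays correlated at -0.035 to 0.037 over 18 pairs. Alternatives were median scaling, no normalisation between arrays, other detection filters, fits of 2 groups, a replicate block, array weights, quality codes and leaving out each array. The number of arrays limits the precision.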

Additional observations from a re-analysis of the deposited data

Results flagged for a closer look

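The change from ES or cEpi to the ES-like cells differed between passages for 5 of the 6 probes, by the limma test of rEpiES p24 minus rEpiES p4, which is the same whichever group both passages are set against. The difference was 1.42 for Uhrf1 (adjusted p = 1.42e-07), 1.05 for Dnmt3b at probe 914927 (adjusted p = 2.95e-05), 0.80 at probe 671858 (adjusted p = 3.87e-05) and 0.47 for Dnmt3l (adjusted p = 0.000236). It was -1.33 for Dnmt1 (adjusted p = 0.00101). In this comparison 36.1% of all tested probes were called. The passages also differ in file layout, and layout and passage cannot be told apart.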

How the results depend on the processing

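Over 36 changes of the 6 probes and the alternatives that could be run, 712 of 738 values stayed on their side of the threshold. Of the rest, 15 lost the call and 11 gained it, and 0 of those called turned round. Changes that were not called could turn sign and still count among the 712. Dnmt3b at probe 671858 did so in rEpiES p24 minus cEpi, from 0.15 to -0.15 without normalisation between arrays. With median scaling or with no normalisation between arrays, 2 members were called in rEpiES p24 minus cEpi in place of 4. With detection required on all 12 arrays, 3 were called in rEpiES p24 minus ES in place of 5, since Dnmt1 and Dnmt3a were not tested. The all-probe count of rEpiES p24 minus rEpiES p4 was 3498 with median scaling and 2912 with no normalisation, against 5505. Dnmt3l in rEpiES p24 minus ES was called with median scaling (0.42, adjusted p = 0.0196), where the median of all probes moved by 0.33. Dnmt3a was called in rEpiES p24 minus rEpiES p4 with median scaling (adjusted p = 0.0411), with only those groups fitted (0.0227) and with array weights (0.0155). Requiring a score above 3 left Dnmt3a untested, an alternative chosen after seeing the data.

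With the replicate block, though the numbers do not pair the samples, the counts of called members were 5 in rEpiES p24 minus rEpiES p4, 4 in rEpiES p24 minus cEpi and 5 in each other comparison, as without it. All-probe counts with the block were 5164 in rEpiES p24 minus rEpiES p4 and 9947 in rEpiES p24 minus cEpi. ES arrays varied most, and array weights by group were 1.21 for rEpiES p24, 1.42 for rEpiES p4, 2.05 for cEpi and 0.284 for ES. Signal near background limits Dnmt3a, and to a lesser degree Dnmt1. Scores of Uhrf1 in ES were low as well, at 5 to 6.08.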
